A study of Mus musculus with 20 samples.

Results

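The enzymes and the transporter that carry sulfur from methionine to taurine were followed in the livers of Scd1 knockout and wild-type mice. The 10 genes were Csad, Cdo1, Ado, Slc6a6, Cth, Cbs, Bhmt, Gnmt, Mat1a and Ahcy, out of 18193 genes with a probe set naming a single gene. Each gene was read from its brightest probe set, chosen by the mean log2 intensity over all 20 arrays, and all 10 lay above the intensity floor of 16 on every array. The array held 17 probe sets for these genes in all. The gene list itself was drawn up with earlier results of these data known, among them the low Csad level in knockout livers on chow.

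Livers came from 4 groups of 5 mice, 1 Affymetrix expression array per liver. These were Scd1-/- mice on a very low fat diet (VLF, product TD03045 of Harlan Teklad), Scd1-/- mice on chow, Scd1+/+ mice on the VLF diet and Scd1+/+ mice on chow. Scd1 encodes the liver desaturase that turns saturated into monounsaturated fatty acids. The sources used here do not give age, sex, strain, time on the diet or the tissues in which Scd1 was deleted.

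Methionine enters this pathway when Mat1a, the liver methionine adenosyltransferase, turns it into S-adenosylmethionine. Gnmt spends that methyl donor on glycine, Ahcy splits the product into homocysteine and adenosine, and Bhmt returns homocysteine to methionine with betaine as the methyl source. Homocysteine that is not returned passes through Cbs and Cth to cysteine, which Cdo1 oxidises and Csad decarboxylates on the way to taurine. Ado makes hypotaurine from cysteamine, and Slc6a6 carries taurine into cells. In mouse liver taurine is the main partner with which bile acids are conjugated.

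Scd1 intensity lay between 27.1 and 57.9 in the 10 knockout livers, against 6496 to 20349.9 in the 10 wild-type livers, so every genotype label was matched. Of 8 hepatocyte markers, none at the floor, 0 rose and 2 fell in knockout against wild-type VLF livers (2 rose and 1 fell when arrays were centred on spiked-in control transcripts in place of quantile normalization), and 0 were called on chow. The 2 were Asgr1 (-0.75 ± 0.06, adjusted p = 3.51e-08) and Fgb (-0.19 ± 0.06, adjusted p = 0.0207). Over all 18193 genes 23% fell and 19.2% rose between the VLF groups (957 fell and 5092 rose on the spiked-in controls). The summed intensity of all 8, 114339 to 118291 in knockout VLF livers and 115540.0 to 119751 in wild-type VLF livers, is made up mostly of genes at the top of the scale such as Alb, and shows little of such changes. Xist lay between 1229 and 1937 on 19 arrays and at the floor on wild-type VLF array 3, while Eif2s3y and Uty lay at the floor on all 20 arrays. The 23 calls of member genes described here were kept in all 20 fits that left out 1 array each, that array included. Knockout chow array 3 and knockout VLF array 2 differed most from the other arrays of their group, by a mean absolute log2 difference of 0.188 and 0.175. The design text calls the livers individual, and p-values measure the spread between them.

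The 250 bases upstream of annotated starts were available in RefSeq windows of build GRCm38.p6 for 6 of the 10 genes. They are shown for Csad, with both of its starts, the one member called between the genotypes on chow. They are also shown for Cbs, Gnmt and Bhmt, which fell in knockout livers on the VLF diet against knockout livers on chow and whose windows held 1 searched motif each. All 5 lie on the minus strand, at chr15:102205053-102205302 and chr15:102189044-102189293 for Csad, chr17:31637206-31637455 for Cbs, chr17:46729166-46729415 for Gnmt and chr13:93637759-93638008 for Bhmt. Capitals mark a motif match, and the bases run 5′ to 3′ and end at the start site.
Csad, start at the higher coordinate: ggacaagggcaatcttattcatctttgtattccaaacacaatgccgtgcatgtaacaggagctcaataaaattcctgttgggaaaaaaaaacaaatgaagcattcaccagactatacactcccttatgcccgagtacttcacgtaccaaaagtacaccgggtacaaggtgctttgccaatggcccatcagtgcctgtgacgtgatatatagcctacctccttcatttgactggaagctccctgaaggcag
Csad, start at the lower coordinate: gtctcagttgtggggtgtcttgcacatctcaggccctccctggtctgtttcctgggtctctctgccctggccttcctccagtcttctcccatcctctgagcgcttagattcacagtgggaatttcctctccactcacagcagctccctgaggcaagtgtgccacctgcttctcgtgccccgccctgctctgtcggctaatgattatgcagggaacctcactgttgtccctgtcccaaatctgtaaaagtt
Cbs: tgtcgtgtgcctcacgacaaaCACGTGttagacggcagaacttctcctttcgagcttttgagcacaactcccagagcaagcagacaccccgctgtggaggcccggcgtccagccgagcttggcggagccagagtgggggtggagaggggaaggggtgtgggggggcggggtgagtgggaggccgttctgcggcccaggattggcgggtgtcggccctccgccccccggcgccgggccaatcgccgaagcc
Gnmt: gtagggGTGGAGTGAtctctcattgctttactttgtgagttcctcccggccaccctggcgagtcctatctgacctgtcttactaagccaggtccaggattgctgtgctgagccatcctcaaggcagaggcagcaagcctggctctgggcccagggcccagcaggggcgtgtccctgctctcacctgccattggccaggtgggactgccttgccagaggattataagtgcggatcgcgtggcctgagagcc
Bhmt: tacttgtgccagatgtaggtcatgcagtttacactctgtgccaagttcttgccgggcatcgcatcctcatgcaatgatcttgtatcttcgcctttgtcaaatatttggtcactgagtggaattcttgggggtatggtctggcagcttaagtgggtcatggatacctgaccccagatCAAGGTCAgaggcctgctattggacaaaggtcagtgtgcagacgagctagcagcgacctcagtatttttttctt

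Motifs were searched on both strands in windows that also held 50 bases after the start. The E-box CACGTG stood in the Cbs window 229 bases before the start, and 7.15% of 32851 RefSeq windows held it. A sterol regulatory element written TCACNCCAC matched the minus strand of the Gnmt window 244 bases before the start, against 1.24% of all windows. The LRH-1 type half-site CAAGGTCA stood 74 bases before the Bhmt start, against 1.56% of all windows. Neither Csad window matched any of the 7 motifs searched, nor did the windows of Ado and Ahcy, which are not shown. Ahcy also fell in knockout livers on the VLF diet against knockout livers on chow. The other 4 motifs were TGATGNAA, an ATF4 element core held by 3.97% of all windows, TGACNNNGC, the antioxidant response element held by 12.4%, GTCANTGAC, an inverted repeat bound by FXR and held by 0.387%, and TATAAA, held by 13.6%. They matched none of the members' windows, which says only that these letters are not there. CAAGGTCA and the inverted repeat can share letters, as both hold GTCA.

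On the VLF diet the methionine cycle genes Mat1a, Gnmt and Ahcy and the transsulfuration gene Cbs were lower in knockout livers, with Mat1a and Ahcy not called when arrays were centred on spiked-in controls. The taurine transporter gene Slc6a6 and the second transsulfuration gene, Cth, were higher under both scalings. Of the 10 genes, 5 fell (Cbs, Gnmt, Ahcy, Mat1a and Cdo1), 2 rose (Slc6a6 and Cth) and 3 were not called (limma, Benjamini-Hochberg adjusted p under 0.05 over 45037 probe sets). Of all 18193 genes, 23% fell and 19.2% rose in the same comparison. The median log2 difference was -0.35 over the members and -0.06 over 16188 genes above the floor. Bhmt had the same sign as the genes that fell but was not called (-0.37 ± 0.16, adjusted p = 0.0963, 95% interval -0.71 to -0.02).

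**Figure D1:**
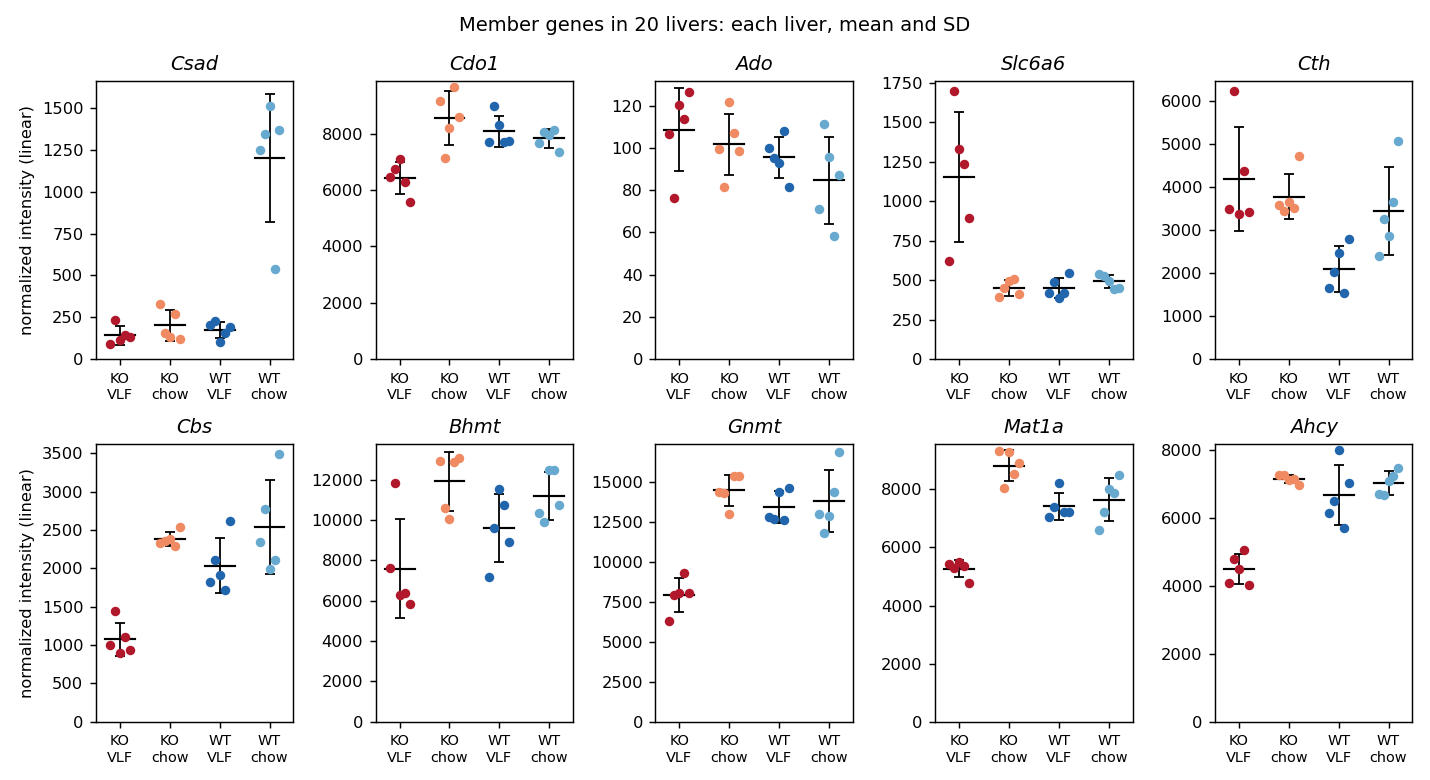
Normalized intensity on a linear scale of each of the 10 genes, by group from left to right (knockout VLF, knockout chow, wild-type VLF, wild-type chow); points are the 5 livers of a group, long bars the mean and whiskers the SD. Csad is high in wild-type chow livers only, Slc6a6 lies highest in knockout VLF livers, and Cbs, Gnmt, Mat1a and Ahcy lie lowest there.

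Mat1a, which makes S-adenosylmethionine in hepatocytes, was lowest in knockout VLF livers. Its normalized intensity there was 5425, 5299, 5486, 5375 and 4778, against 7057, 7377, 8208, 7216 and 7216 in wild-type VLF livers. On chow it was 9303, 8046, 9279, 8522 and 8889 in knockout livers, against 6613, 7216, 8021, 7874 and 8501 in wild-type livers. Every knockout VLF liver lay below every liver of the other 3 groups, which overlapped one another. Mat1a was 1.41-fold lower in knockout than in wild-type VLF livers (log2 -0.49 ± 0.06, estimate ± SE, adjusted p = 7.44e-06) and 1.67-fold lower in knockout VLF than in knockout chow livers (-0.74 ± 0.06, adjusted p = 5.14e-08). On chow the genotypes differed by 0.21 ± 0.06 (adjusted p = 0.0765), with the knockout mean above the wild-type mean.

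Gnmt, the glycine methyltransferase that uses up S-adenosylmethionine, had the second largest fall among the members on the VLF diet after Cbs. Knockout VLF livers read 6281, 7898, 8074, 9303 and 8046, against 12788, 12688, 14373, 12587 and 14607 in wild-type VLF livers. Knockout chow livers read 14373, 14280.3, 12959.5, 15348 and 15348, against 12959.5, 11827, 12882, 14373 and 16848 in wild-type chow livers. The highest knockout VLF liver lay below the lowest liver of every other group. Gnmt was 1.70-fold lower in knockout than in wild-type VLF livers (-0.77 ± 0.10, adjusted p = 4.70e-06), and 1.84-fold lower in knockout VLF than in knockout chow livers (-0.88 ± 0.10, adjusted p = 1.01e-06). The genotype difference on chow was 0.08 ± 0.10 (adjusted p = 0.817).

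Ahcy, which clears S-adenosylhomocysteine, followed the same order. It averaged 4498 ± 445 in knockout VLF livers, against 6681 ± 882 in wild-type VLF livers (mean ± SD, n = 5 each). On chow it averaged 7157 ± 124 in knockout livers and 7039 ± 343 in wild-type livers. Knockout VLF livers ranged over 4043 to 5059, and the lowest liver of the other groups stood at 5713, so they did not overlap. The fall was -0.57 ± 0.08 against wild-type VLF livers (adjusted p = 1.01e-05) and -0.68 ± 0.08 against knockout chow livers (adjusted p = 1.31e-06).

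Bhmt, the betaine-dependent remethylation enzyme, was more scattered. It ranged over 5860.4 to 11827 in knockout VLF livers, 10069.7 to 13089 in knockout chow livers, 7164 to 11528 in wild-type VLF livers and 9934 to 12473 in wild-type chow livers. Knockout VLF replicate 2 lay above all wild-type VLF livers and within the range of both chow groups, while the other 4 knockout VLF livers lay at or below 7634. Bhmt was 1.61-fold lower in knockout VLF than in knockout chow livers (-0.69 ± 0.16, adjusted p = 0.0031). Without knockout VLF replicate 2 the difference from wild-type VLF livers was -0.54 ± 0.13 and was called (adjusted p = 0.0028), and without wild-type VLF replicate 1 it was -0.47 ± 0.16 and was also called (adjusted p = 0.0371).

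Cbs, which condenses homocysteine with serine and opens transsulfuration, fell most among the 10 genes in knockout livers on the VLF diet. Knockout VLF livers read 997, 1437, 901, 1100.0 and 932, against 1827, 2109, 1908, 1714 and 2612 in wild-type VLF livers. Knockout chow livers read 2335, 2351, 2381, 2296 and 2536, against 2347, 2773, 1988, 2107 and 3491 in wild-type chow livers. Knockout VLF livers lay below all 15 other livers, and the other groups overlapped. Cbs was 1.90-fold lower in knockout than in wild-type VLF livers (-0.93 ± 0.15, adjusted p = 6.45e-05) and 2.25-fold lower in knockout VLF than in knockout chow livers (-1.17 ± 0.15, adjusted p = 5.00e-06). The second Cbs probe set fell by 1.14 and 1.33 on the log2 scale in these comparisons (adjusted p = 3.29e-06 and 5.19e-07). The Cbs promoter window is the one that holds the E-box CACGTG.

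Cth, the next enzyme, which releases cysteine from cystathionine, ran the other way. Knockout VLF livers read 3491, 6228, 3382, 4377 and 3425, against 1659, 2015, 2472, 1545 and 2782 in wild-type VLF livers. Knockout chow livers read 3588, 3441, 3639, 3506 and 4714, against 2384, 3263, 2861, 3639 and 5077 in wild-type chow livers. All 5 knockout VLF livers lay above all 5 wild-type VLF livers, and knockout VLF livers overlapped both chow groups. Cth was 1.99-fold higher in knockout than in wild-type VLF livers (0.99 ± 0.21, adjusted p = 0.000945). Between knockout VLF and knockout chow livers it differed by 0.11 ± 0.21 (adjusted p = 0.922, 95% interval -0.32 to 0.55). Between wild-type VLF and wild-type chow livers it differed by -0.71 ± 0.21 (adjusted p = 0.122, interval -1.14 to -0.27), and those groups overlapped.

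Cdo1, the cysteine dioxygenase that commits cysteine to sulfinate, had a small but separated fall that was not called on the spiked controls. It averaged 6439 ± 570.1 in knockout VLF livers, against 8092 ± 560.2 in wild-type VLF livers, and on chow 8558 ± 967 in knockout livers, against 7838 ± 322 in wild-type livers (n = 5 each). The highest knockout VLF liver, at 7101, lay below the lowest liver of the other groups, at 7141. Cdo1 was 1.26-fold lower in knockout than in wild-type VLF livers (-0.33 ± 0.08, adjusted p = 0.00194) and 1.33-fold lower in knockout VLF than in knockout chow livers (-0.41 ± 0.08, adjusted p = 0.000329). On the spiked controls these differences were -0.08 ± 0.14 (adjusted p = 0.926) and -0.05 ± 0.14 (adjusted p = 0.939).

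Csad, the cysteine sulfinate decarboxylase, was high in a single group. Knockout chow livers read 326, 155, 133, 269.6 and 122, against 1248, 1344, 1514, 536 and 1369 in wild-type chow livers. Knockout VLF livers read 87.6, 236, 116, 145 and 129.7, against 203, 226, 101, 156 and 189 in wild-type VLF livers. The lowest wild-type chow liver, replicate 4, still lay above the highest of the 15 other livers, and the 3 lower groups overlapped one another. The genotype difference on chow (-2.61 ± 0.34, 6.09-fold lower in the knockout) was known when the genes were chosen and is given as a description. Wild-type livers differed by a like amount between diets (-2.75 ± 0.34, 6.72-fold lower on the VLF diet). These differences share the wild-type chow livers. Within the 3 low groups, knockout and wild-type VLF livers differed by -0.32 ± 0.34 (adjusted p = 0.586, interval -1.03 to 0.39), and knockout VLF and knockout chow livers by -0.46 ± 0.34 (adjusted p = 0.407, interval -1.17 to 0.24). The RNA-quality control ratios were also highest on average in wild-type chow livers. The 3′ over 5′ actin ratio was 2.09 to 2.36 in knockout chow livers, 2.00 to 2.41 in wild-type VLF livers and 2.34 to 3.12 in wild-type chow livers, and the Gapdh ratio was 1.34 to 1.43, 1.22 to 1.44 and 1.41 to 1.75 in the same groups. Their part in the Csad difference was not tested.

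Ado, the cysteamine dioxygenase, gave no single answer. Its brightest probe set averaged 109 ± 19.5 in knockout VLF livers, against 95.4 ± 9.78 in wild-type VLF livers, and 102 ± 14.5 in knockout chow livers, against 84.6 ± 20.7 in wild-type chow livers (n = 5 each). The knockout and wild-type VLF groups overlapped, with a difference of 0.17 ± 0.16 (adjusted p = 0.517, interval -0.17 to 0.51). The second-brightest probe set was lower in knockout VLF livers (-0.25 ± 0.07, adjusted p = 0.0138) and the third was higher (0.50 ± 0.11, adjusted p = 0.0017). The dimmest, near 20, differed by 0.13 ± 0.05 (adjusted p = 0.0451).

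Slc6a6, the sodium-dependent taurine transporter, had the largest rise among the 10 genes on the VLF diet. Knockout VLF livers read 622, 1694, 1328, 1235 and 893, against 421, 485, 384, 418 and 543 in wild-type VLF livers. Knockout chow livers read 393, 450.0, 491, 504 and 411, against 539.5, 527, 496, 441 and 452 in wild-type chow livers. The 5 knockout VLF livers lay above all 15 others, and the other 3 groups overlapped. Slc6a6 was 2.44-fold higher in knockout than in wild-type VLF livers (1.29 ± 0.19, adjusted p = 2.52e-05) and 2.44-fold higher in knockout VLF than in knockout chow livers (1.28 ± 0.19, adjusted p = 2.85e-05). On chow the genotypes differed by -0.13 ± 0.19 (adjusted p = 0.893, interval -0.53 to 0.27). The second-brightest probe set rose by 1.08 ± 0.11 and 1.04 ± 0.11 in the same comparisons (adjusted p = 5.57e-07 and 9.25e-07). The 2 dimmer ones, averaging 92.0 and 42.0 in knockout VLF livers, differed from wild-type VLF livers by -0.03 ± 0.12 and -0.04 ± 0.10.

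Some marker lists of other cells also differed between the VLF groups, and others differed little. Of 5 lymphocyte markers 0 rose and 2 fell (0 and 0 on the spiked controls). Of 4 cholangiocyte markers 1 rose and 0 fell under both scalings. Of 8 macrophage and Kupffer cell markers 8 rose in knockout against wild-type VLF livers, and their summed intensity was 13599 to 17389 in knockout VLF livers, 4695 to 6374 in knockout chow livers, 3969.7 to 4734 in wild-type VLF livers and 4831 to 5219.7 in wild-type chow livers. None of the 8 lay at the floor. Over all 18193 genes 19.2% rose and 23% fell between the VLF groups (5092 rose and 957 fell on the spiked controls). Of 6 stellate cell markers 4 rose and 1 fell (4 and 0 on the spiked controls), with sums of 4387 to 5616 in knockout VLF livers and 2219 to 2774 in wild-type VLF livers. All 4 markers of hepatocytes around the central vein fell, to sums of 9083 to 13171 in knockout VLF livers, against 20755 to 25003 in wild-type VLF livers. The 2 measured markers of hepatocytes around the portal vein had lower sums too, of 3796 to 4972 in knockout VLF livers, against 5746 to 8076 in wild-type VLF livers, and Hal was called (-1.90, adjusted p = 3.84e-07) and Pck1 was not (-0.33, adjusted p = 0.0804). Of 3 neutrophil markers 2 rose, S100a8 (4.01 ± 0.51) and S100a9 (3.16 ± 0.42), with sums of 692 to 4564 in knockout VLF livers, against 135 to 169 in wild-type VLF livers. Of 5 sinusoidal endothelial markers 1 rose and 3 fell, Stab2, Kdr and Clec4g (1 rose and 0 fell on the spiked controls), and their sums overlapped, at 1571 to 2433 in knockout VLF livers and 1762 to 2163 in wild-type VLF livers. The 3′ over 5′ ratio of the actin control probes had a mean of 1.89 in knockout VLF livers and 2.21 in wild-type VLF livers. It ranged over 1.76 to 2.00 in knockout VLF livers and 2.00 to 2.41 in wild-type VLF livers. The knockout VLF range lay below that of knockout chow livers, at 2.09 to 2.36. The mean Gapdh control ratio was 1.34 in knockout VLF livers and 1.33 in wild-type VLF livers. The part of these cells, zones and RNA differences in the member differences was not tested. In bulk liver, fewer cells of a type and less RNA per cell cannot be told apart.

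On chow, 9 of the 10 genes were not called between the genotypes. Only Csad was called, as lower in the knockout, and 0 rose. That Csad level was known when the genes were chosen, so its call is given as a description. Of all genes 1.7% were called lower and 1.23% called higher. With only the compared groups fitted Csad was not called (adjusted p = 0.0502). At unadjusted p under 0.05 limma had 1 member up, Mat1a, and 1 down, Csad, with no share over all genes computed at that threshold. The member median was 0.08 against -0.02 over all genes above the floor.

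In the knockout, 6 of the 10 genes were lower on the VLF diet than on chow (Cbs, Gnmt, Mat1a, Bhmt, Ahcy and Cdo1) and 1, Slc6a6, was higher. On the spiked controls the first 3 of these falls and the rise were called. Of all genes 17.7% fell and 17.1% rose. The member median was -0.57 against -0.03 over all genes. In wild-type livers Csad alone was called between the diets, as lower on the VLF diet, and 0 members were called higher, against 0.781% of all genes called lower and 0.786% called higher. That comparison shares the wild-type chow livers with the Csad difference known when the genes were chosen. At unadjusted p under 0.05 limma had 2 members lower, Csad and Cth, and 0 higher, with no share over all genes computed at that threshold. The member median there was -0.11 against -0.02 over all genes.

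The genotype difference depended on the diet for 7 of the 10 genes, tested as the knockout minus wild-type difference on the VLF diet minus that on chow. On the spiked controls 3 were called, all positive (Csad, Slc6a6 and Cth), and none of the 5 negative calls that follow was made. Gnmt (-0.85 ± 0.14, adjusted p = 0.00017), Cbs (-0.86 ± 0.21), Mat1a (-0.70 ± 0.09), Ahcy (-0.59 ± 0.11) and Cdo1 (-0.45 ± 0.11) had negative values. Slc6a6 was positive (1.42 ± 0.27, adjusted p = 0.000705), and so was Csad (2.29 ± 0.48), whose value rests on the wild-type chow livers. The low Csad level in knockout chow livers was known when the genes were chosen, so its interaction is given as a description. Of all genes 12.1% were called with a negative value and 12.1% with a positive one. Cth was not called (0.82 ± 0.29, adjusted p = 0.0617, interval 0.20 to 1.44), nor was Bhmt (-0.46 ± 0.23, adjusted p = 0.229). Cth passed the threshold without knockout chow replicate 5, wild-type VLF replicate 5 or wild-type chow replicate 1 (adjusted p = 0.0469, 0.0333 and 0.0287), and Bhmt without knockout VLF replicate 2 (adjusted p = 0.0157). These comparisons share groups of livers, so their values are not independent.

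**Figure D2:**
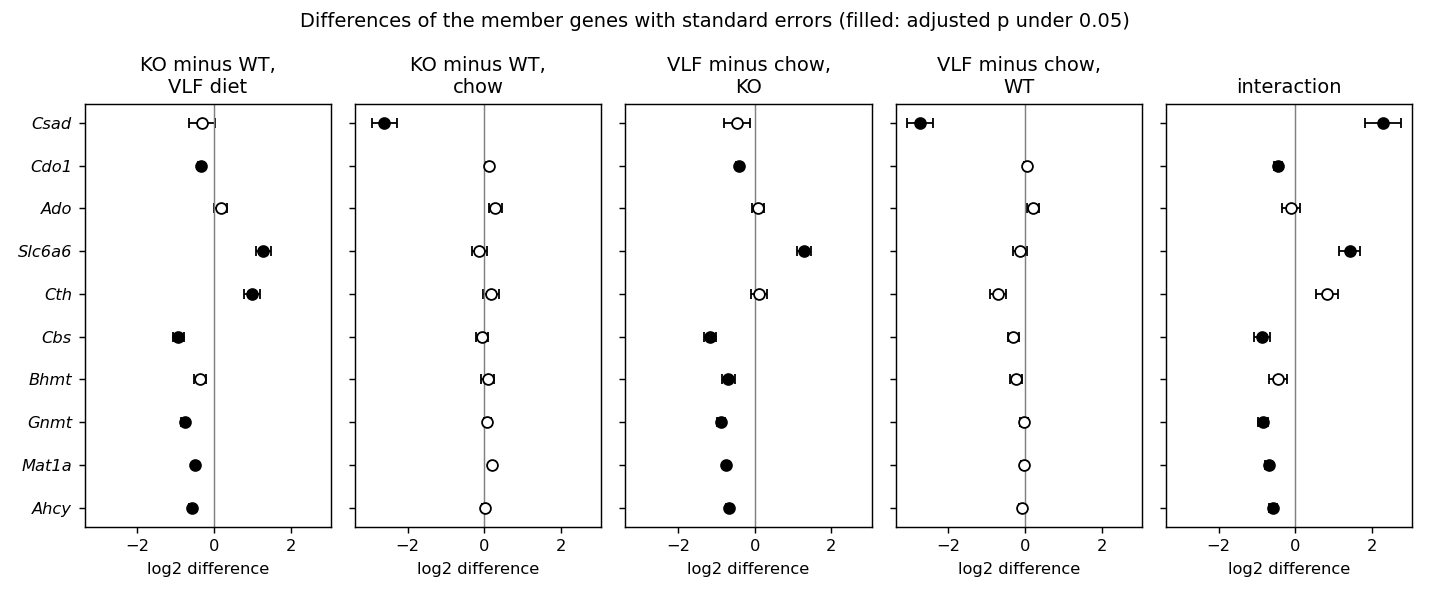
Log2 difference of each of the 10 genes in the 5 comparisons, one panel each; points are limma estimates, whiskers standard errors and filled points have an adjusted p under 0.05. Slc6a6 and Cth stand to the right and Cbs, Gnmt, Mat1a and Ahcy to the left between knockout and wild-type VLF livers, while on chow Csad at -2.61 is the only filled point.

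How far the falls extended depended on the scale on which arrays were compared. When arrays were centred on the control transcripts spiked into every hybridization, in place of quantile normalization, the median over all genes moved to 0.14 between knockout and wild-type VLF livers, 0.30 between diets in the knockout and 0.33 for the interaction. Under that scaling Slc6a6 and Cth still rose and Cbs and Gnmt still fell in knockout against wild-type VLF livers, and Mat1a (-0.25 ± 0.11, adjusted p = 0.112), Ahcy (-0.32 ± 0.13, adjusted p = 0.0860) and Cdo1 (-0.08 ± 0.14, adjusted p = 0.926) were not called. Under quantile normalization the standard errors of Mat1a, Ahcy and Cdo1 were smaller, at 0.06, 0.08 and 0.08. Between diets in the knockout Slc6a6 rose and Cbs, Gnmt and Mat1a fell on the spiked controls, and Bhmt, Ahcy and Cdo1 were not called. For the interaction Csad, Slc6a6 and Cth had positive calls and 0 members had negative ones. The member median was -0.10 between the VLF groups, -0.20 between diets in the knockout and -0.08 for the interaction, so it stayed below the moved median of all genes in each.

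Over all genes the split of calls moved with the scaling too. Between knockout and wild-type VLF livers 3491 genes rose and 4177 fell, against 5092 and 957 on the spiked controls and 4157 and 3109 with median scaling alone. Between diets in the knockout 3108 rose and 3213 fell, against 6798 and 871 on the spiked controls. The interaction had 2206 positive and 2197 negative calls, against 3965 and 618 on the spiked controls. On chow 224 genes rose and 310 fell in the knockout, against 1 and 2 on the spiked controls and 1258 and 234 with median scaling alone.

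**Figure D3:**
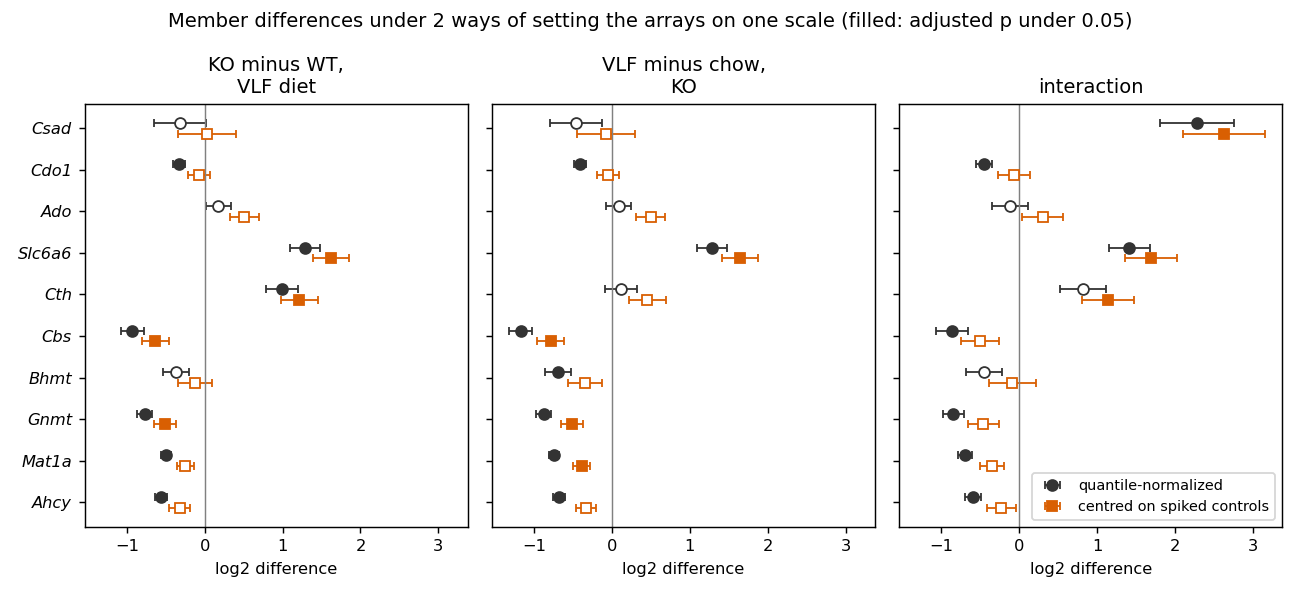
Log2 difference of each of the 10 genes under quantile normalization (circles) and with arrays centred on the spiked controls (squares), in 3 comparisons; whiskers are standard errors and filled symbols have an adjusted p under 0.05. Centring on the spiked controls moves the points to the right, and the standard errors of Mat1a, Ahcy and Cdo1 grow. These genes are not called on that scale between knockout and wild-type VLF livers, and Slc6a6, Cth, Cbs and Gnmt keep their calls.

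Genes that follow cysteine oxidation, among them the bile acid conjugation pair, were lower or not called on the VLF diet. Of 11 such genes 5 fell and 0 rose in knockout against wild-type VLF livers (4 fell and 1 rose on the spiked controls), with a median of -0.39. Among all 18193 genes 23% fell and 19.2% rose there (957 fell and 5092 rose on the spiked controls). Slc27a5, the bile acyl-CoA synthetase that primes bile acids for taurine, averaged 2955 ± 596 in knockout VLF livers, against 7428 ± 813 in wild-type VLF livers (n = 5 each; -1.34 ± 0.11, adjusted p = 1.25e-08). Baat, which joins the activated bile acid to taurine, averaged 442 ± 86.8 in knockout VLF livers, against 703 ± 90.5 in wild-type VLF livers (-0.68 ± 0.11, adjusted p = 0.000111). Fmo1, a flavin monooxygenase that oxidises hypotaurine to taurine, fell (-1.05 ± 0.13), as did the betaine transporter Slc6a12 (-1.24 ± 0.16) and Ggt6 (-0.79 ± 0.11). Slc27a5, Baat, Slc6a12 and Fmo1 also fell between knockout VLF and knockout chow livers, where 5 of 11 fell and 0 rose (4 fell and 4 rose on the spiked controls). Among all genes 17.7% fell and 17.1% rose there (871 fell and 6798 rose on the spiked controls). Baat also fell in wild-type livers on the VLF diet, to 703 ± 90.5, against 1013 ± 46.1 on chow (-0.54 ± 0.11, adjusted p = 0.0292), a call not made on the spiked controls.

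Around the methionine cycle the folate enzymes Shmt1 and Mthfd1 fell in knockout livers on the VLF diet. Of 14 genes of the cycle, remethylation and methionine salvage 7 fell and 4 rose in knockout against wild-type VLF livers (4 fell and 5 rose on the spiked controls). The shares over all 18193 genes were 23% lower and 19.2% higher (957 fell and 5092 rose on the spiked controls). Shmt1, the cytosolic serine hydroxymethyltransferase, averaged 516 ± 102 in knockout VLF livers, against 1568 ± 109 in wild-type VLF livers (-1.62 ± 0.12, adjusted p = 5.25e-09). Mthfd1, which interconverts folate one-carbon units, averaged 804 ± 216 in knockout VLF livers, against 2031 ± 187 in wild-type VLF livers (-1.37 ± 0.13). Bhmt2, the close relative of Bhmt, fell (-0.95 ± 0.12), as did the salvage enzyme Adi1 (-0.81 ± 0.09). Between diets in the knockout 7 fell and 3 rose (3 fell and 6 rose on the spiked controls), with the salvage enzyme Enoph1 among the rises (1.03 ± 0.14) and Shmt2 among the falls (-0.82 ± 0.11). Over all genes 17.7% fell and 17.1% rose between those diets (871 fell and 6798 rose on the spiked controls).

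Most of the methyl acceptor and betaine breakdown genes fell in knockout livers on the VLF diet. Of 12 genes 8 fell and 1 rose in knockout against wild-type VLF livers, and the same numbers changed between diets in the knockout (8 fell and 2 rose, and 6 fell and 2 rose, on the spiked controls). Over all 18193 genes 23% fell and 19.2% rose between the VLF groups (957 fell and 5092 rose on the spiked controls). Between diets in the knockout 17.7% of all genes fell and 17.1% rose (871 fell and 6798 rose on the spiked controls). Inmt, an indole and thioether methyltransferase, averaged 531 ± 208 in knockout VLF livers, against 5676 ± 572 in wild-type VLF livers (-3.50 ± 0.21, adjusted p = 2.98e-10). Gamt, which makes creatine and is a major user of S-adenosylmethionine, averaged 455 ± 88.4 in knockout VLF livers, against 1639 ± 150.2 in wild-type VLF livers (-1.87 ± 0.17). The sarcosine dehydrogenase Sardh (-1.48 ± 0.11) and the choline dehydrogenase Chdh (-0.74 ± 0.06), which feeds betaine to Bhmt, also fell. Between diets in the knockout Aldh7a1 fell as well (-0.97 ± 0.06, adjusted p = 6.78e-10). In wild-type livers Aldh7a1 was lower (-0.34 ± 0.06, adjusted p = 0.00972) and As3mt higher (0.52 ± 0.12, adjusted p = 0.0381) on the VLF diet than on chow. Neither of these wild-type calls was made on the spiked controls. On chow the thiopurine methyltransferase Tpmt was higher in the knockout (0.61 ± 0.12, adjusted p = 0.029), the single call among the companion lists there, and it was not made on the spiked controls. At unadjusted limma p under 0.05 the 5 lists, of 11, 14, 12, 14 and 11 genes, had 6 genes higher and 3 lower in the knockout on chow. The share of all genes at that threshold was not computed, so these counts have no background beside them.

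Cysteine supply and glutathione synthesis genes split both ways, with Gclc and Gss among the rises. Of 14 genes 6 rose and 5 fell in knockout against wild-type VLF livers (6 and 3 on the spiked controls). The shares over all 18193 genes were 19.2% higher and 23% lower (5092 rose and 957 fell on the spiked controls). Gclc, the catalytic subunit that makes gamma-glutamylcysteine, averaged 5204 ± 1022 in knockout VLF livers, against 1502 ± 289 in wild-type VLF livers (1.79 ± 0.18, adjusted p = 2.61e-07). Gss, the glutathione synthetase, averaged 716 ± 67.2 in knockout VLF livers, against 250.3 ± 53.0 in wild-type VLF livers (1.54 ± 0.15). Slc3a2, the heavy chain of the cystine exchanger, rose (1.88 ± 0.12), and its light chain Slc7a11 ranged over 29.6 to 109 in knockout VLF livers, against 16 to 20.9 in wild-type VLF livers, where the floor is 16. The peptidases Anpep (-0.92 ± 0.06) and Lap3 (-0.61 ± 0.06) fell. Between diets in the knockout Oplah was among the falls (-0.76 ± 0.07, adjusted p = 2.06e-07). In wild-type livers Gss (-0.71 ± 0.15, adjusted p = 0.0231) and Lap3 (-0.31 ± 0.06, adjusted p = 0.0147) were lower on the VLF diet than on chow, calls that were not made on the spiked controls.

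The sulfide and sulfite enzymes Suox, Tst and Mpst fell in knockout livers on the VLF diet. Of 11 genes 5 fell and 1 rose in knockout against wild-type VLF livers (4 and 1 on the spiked controls), and 8 fell and 1 rose between diets in the knockout (5 and 1). Over all 18193 genes 23% fell and 19.2% rose in the first comparison (957 fell and 5092 rose on the spiked controls). In the second 17.7% of all genes fell and 17.1% rose (871 fell and 6798 rose on the spiked controls). Suox, the sulfite oxidase, averaged 264 ± 87.1 in knockout VLF livers, against 909.8 ± 86.2 in wild-type VLF livers (-1.84 ± 0.16, adjusted p = 2.91e-08). Tst, the mitochondrial rhodanese, averaged 1041 ± 80.2 in knockout VLF livers, against 2285 ± 142 in wild-type VLF livers (-1.14 ± 0.07). The mercaptopyruvate sulfurtransferase Mpst (-1.17 ± 0.10) and Papss2 (-1.32 ± 0.14), which makes the active sulfate donor, fell as well. The sulfate transporter Slc26a1 was lower on the VLF diet in wild-type livers too (-0.52 ± 0.11, adjusted p = 0.0324), a call not made on the spiked controls.

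**Figure D4:**
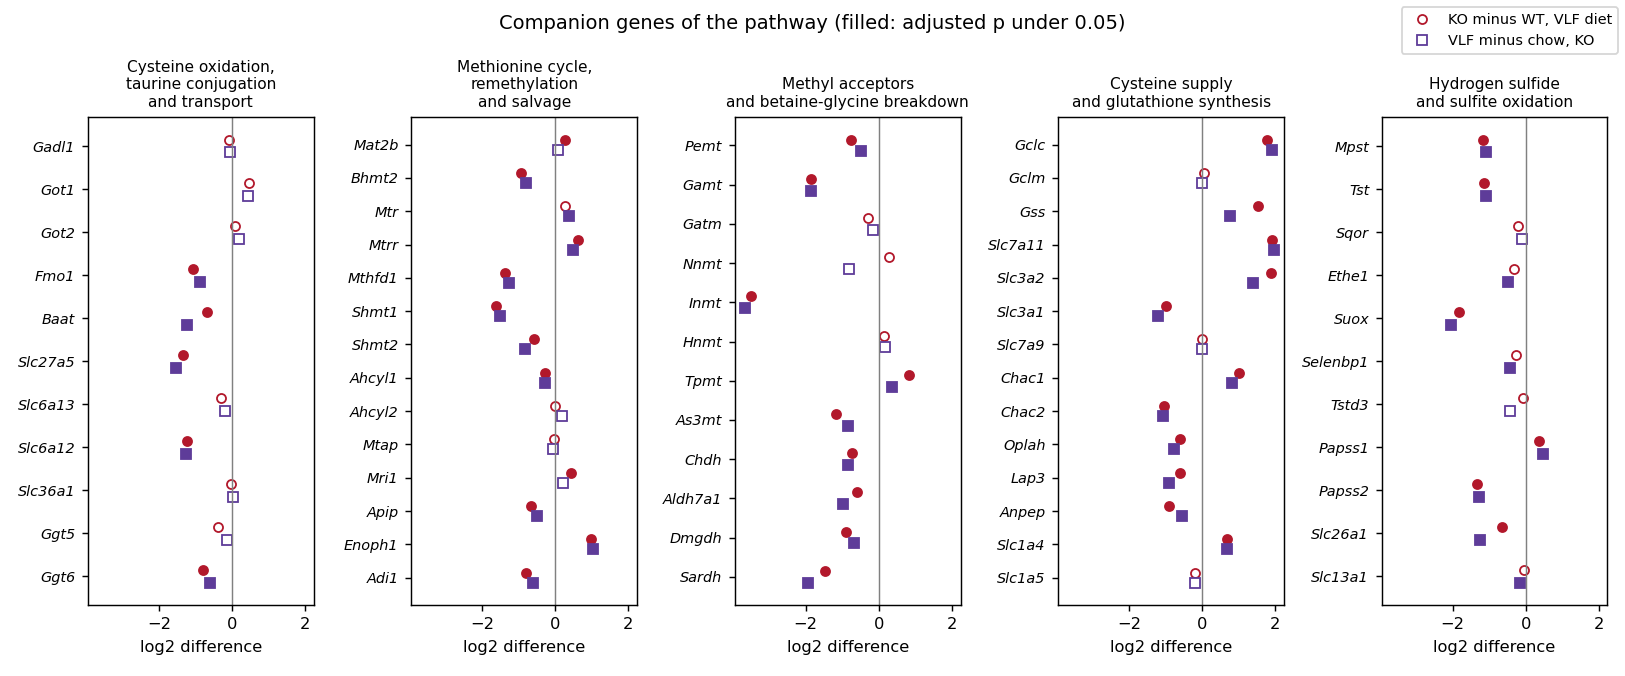
Log2 differences of the genes of the 5 companion lists, one panel per list; circles are knockout minus wild type on the VLF diet, squares VLF minus chow in the knockout, and filled symbols have an adjusted p under 0.05. Inmt stands farthest to the left, at -3.50 and -3.67, and Gclc and Slc3a2 stand to the right.

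Genes with the most similar profile over the 20 livers were found by the root mean square difference in log2 intensity from each member, after centring each of 15336 genes on its own mean. For Csad, whose own root mean square deviation was 1.33, a single gene came close, Dnase2a at 0.234. It was read by a probe set of a type that may hybridize to several transcripts. Its intensity averaged 163 ± 74.8 in knockout VLF, 221 ± 105 in knockout chow, 199 ± 65.9 in wild-type VLF and 998 ± 277 in wild-type chow livers. Its lowest liver was that of Csad in 3 of the 4 groups, with wild-type chow replicate 4 at 526 for Dnase2a and 536 for Csad. The next genes were Fam25c (0.877), Arrdc3 (0.926), Gm9222 (0.946) and Ntmt1 (0.960). Fam25c averaged 608 ± 297 in knockout VLF, 798 ± 182 in knockout chow, 371 ± 125 in wild-type VLF and 1357 ± 152 in wild-type chow livers.

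**Figure D5:**
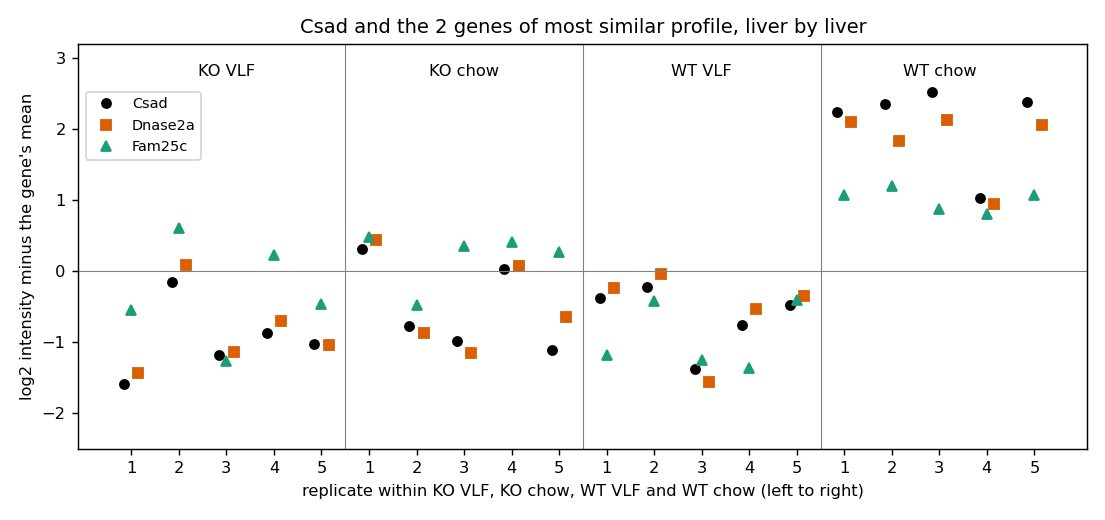
Log2 intensity minus the gene's own mean for Csad, Dnase2a and Fam25c in each of the 20 livers, ordered by group (knockout VLF, knockout chow, wild-type VLF, wild-type chow) and replicate number. Csad and Dnase2a move together liver by liver, with wild-type chow replicate 4 lower than the other 4 livers of its group for both.

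For Slc6a6, with its own deviation of 0.610, the most similar genes were Apobec1 (0.228), Atp6ap2 (0.244) and Dcn (0.250), the last of which is among the stellate cell markers. For Cth (0.494) they were Irf5 (0.277), Acox2 (0.283) and Lcp1 (0.316). For Cbs (0.541) they were Albfm1 (0.172), Txndc15 (0.175) and H2-Ke6 (0.177). For Bhmt (0.361) they were Amacr (0.175), F11 (0.180) and Pex16 (0.191).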

How the data were processed

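The authors' deposited table held 45101 probe sets on 20 arrays, 1 per liver, with 5 livers in each of 4 groups. The size and spread of the deposited values are those of linear intensity, and depth does not apply to arrays, whose number limits the precision. Both MAS5 and RMA appear in the processing tools, per the submitters' processing notes, and the sources used here do not say which made the values. RNA came from flash-frozen liver, per the labels' protocols.

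Each array was brought to the same median, values under 16 were set to 16, and log2 values were quantile-normalized. With the 64 control probe sets left out, limma 3.58.1 in R 4.3.3 fitted a mean per group over all arrays, with Benjamini-Hochberg adjustment over 45037 probe sets and calls at adjusted p under 0.05. The variance model left out 9114 probe sets that never exceeded the floor, which counted as not called. The probe table named a single gene for 34945 probe sets, several for 932 and none for 9160. Each gene was read from its brightest probe set, and means and SDs are of normalized linear intensities.

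The member genes, the 5 companion lists and the cell type markers were chosen with earlier results of these data known. Companion genes were named as the called ones with the smallest adjusted p, at most 4 per list and comparison. Baat, Gclc and Slc7a11 between the VLF groups were added after their values were seen. Listed genes without a probe set naming them alone were not analysed here. Alternatives covered scaling, floor, the fitted groups, the variance prior, probe set choice, a replicate block and leaving out each array. The fit was tested on simulated data with known changes. Python 3.11.15 with matplotlib 3.10.9 drew the figures.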

Additional observations from a re-analysis of the deposited data

Results flagged for a closer look

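In groups of 5 livers, 1 liver stood apart from the rest by Dixon's criterion (a gap over the group's range above 0.71) in 3 of the 40 member and group combinations, where chance gives about 1 in 20. Csad in wild-type chow replicate 4 was low, at 536, against 1248 to 1514 in the other 4 livers of that group. Cth in knockout chow replicate 5 was high, at 4714, against 3441 to 3639 in the other 4. Mat1a in knockout VLF replicate 5 was low, at 4778, against 5299 to 5486 in the other 4.

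The genotype difference itself differed between the diets for 7 members by the interaction term of limma (knockout minus wild type on the VLF diet, minus the same on chow). On the log2 scale the interaction was 2.29 for Csad and 1.42 for Slc6a6. It was -0.86 for Cbs, -0.85 for Gnmt, -0.70 for Mat1a, -0.59 for Ahcy and -0.45 for Cdo1. The 5 negative values were not called with arrays centred on the spiked controls, where Csad and Slc6a6 were. The low Csad level in knockout chow livers was known when the genes were chosen.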

How the results depend on the processing

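The 23 member calls were kept in all 20 fits that left out 1 array. Members called then ranged over 7 to 8 between genotypes on the VLF diet, 1 to 2 on chow, 7 to 7 for the diet in the knockout, 1 to 1 for the diet in wild type and 7 to 8 for the interaction. All probe sets called ranged over 13136 to 15843 (15055 with all arrays), 47 to 2252 (1185), 10935 to 12783 (12098), 218 to 625 (491) and 7596 to 8610 (8179) in the same order. Centred on the spiked controls, 4 members were called on the VLF diet, 4 for the diet in the knockout and 3 for the interaction, in place of 7 each, and 11 probe sets on chow and 89 for the diet in wild type. With median scaling alone 2 members were called on chow, Csad and Mat1a (0.29 ± 0.07, adjusted p = 0.0316), with 2953 probe sets there and 310 for the diet in wild type. With only the compared groups fitted 0 members were called on chow (Csad at limma adjusted p = 0.0502). That fit called 18 probe sets there and 275 for the diet in wild type. With all groups fitted 1 member was higher and 1 lower on chow at unadjusted limma p under 0.05. The share of all genes at that unadjusted threshold was not computed. On chow a floor of 1 called 2158 probe sets and brighter probe sets alone 2686. Ado reversed with its second-brightest probe set, to -0.25 between VLF groups and -0.24 between diets in the knockout. The cause of these changes was not tested. Deviations of same-numbered replicates from their group means had r from -0.26 to 0.27 (median -0.005, above 0.1 in 6 of 30 pairs). Differently numbered livers were not compared in this way, so these values cannot decide whether numbers pair livers. With the replicate block, 0 member calls were lost, Cth passed for the interaction (adjusted p = 0.0472), and 609 probe sets were called on chow. Leaving out the probe set types _s_at, _x_at and _i_at, which can read several transcripts, ended no member call. That alternative was chosen after seeing the data. Among the members it changed the probe set of Cbs alone, to the second-brightest. The single Csad probe set, of type _a_at, was kept, so the alternative could not test it. Companion genes were not refitted with arrays left out. Between VLF groups Csad had the widest interval of the members (-1.03 to 0.39).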
